A study of Mus musculus with 28 samples.

Results

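miR-146a-5p, miR-146b-5p and miR-155-5p, 3 microRNAs (miRNAs) of the inflammatory response, were followed in alveolar macrophages (AM) of mice that breathed ozone (O3) or filtered air (FA). The members were taken by name (mmu-mir-146a-5p, mmu-mir-146b-5p and mmu-mir-155-5p in the files), and all 3 were listed in each of the 4 deposited tables, among 607 miRNAs listed in any table and 308 listed in all 4. Small RNA was sequenced from 28 libraries of AM obtained by lavage. The co-ex mice were humanized transgenic animals that carry a human SP-A1 and a human SP-A2 variant (6A2 and 1A0) in place of the mouse surfactant protein A, on the SP-A knockout background in C57BL/6J, and the KO mice lacked SP-A and carried no transgene, so that mouse SP-A was absent from every group. Males and females, 12 weeks old, were exposed for 3 h and AM were collected after 4 h of recovery. Each of the 4 co-ex groups (female FA, female O3, male FA, male O3) had 4 libraries and each of the 4 KO groups had 3, and the exposures to FA and O3 ran side by side. The library codes of KO female FA replicates 2 and 3 and of KO male FA replicate 3 lie apart from the other KO codes. What the codes stand for is not given, and their part in the differences of O3 and FA was not tested. The cycle of the females was synchronized. The labels do not say that each library is a single animal, so p-values measure the spread between these libraries.

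The miR-146 genes and the miR-155 gene respond to NF-kB signalling downstream of Toll-like receptors. miR-146a and miR-146b repress the adaptor kinases and ligases Irak1 and Traf6 and so act as a brake on that signalling, while miR-155 represses the inhibitors Socs1 and Inpp5d and is known as a promoter of macrophage activation. SP-A, the surfactant protein whose absence or human form sets the genotypes here, is a collectin of the airspace that binds microbes and oxidised material and acts on AM.

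The mature sequences are shown because the seed, bases 2 to 8 and in capitals here, sets which transcripts a miRNA pairs with, and because miR-146a-5p and miR-146b-5p are so alike that counting could exchange their reads. The sequences and positions are those of RefSeq on GRCm38.p6, 5′ to 3′.
miR-146a-5p: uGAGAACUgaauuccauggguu
miR-146b-5p: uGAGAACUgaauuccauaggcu
miR-155-5p: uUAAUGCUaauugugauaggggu
miR-146a-5p and miR-146b-5p shared the seed and were identical at 20 of 22 positions, differing by G18A and U21C (miR-146a-5p first, positions counted from the 5′ end). No other listed miRNA carried the seed GAGAACU, and none shared the seed UAAUGCU of miR-155-5p, among the 517 of 607 listed miRNAs that matched a RefSeq entry. Reads cut short of position 18 could belong to either miR-146, and how the authors' counting shared them out is not given in the sources used here.

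The RefSeq hairpins of the miR-146 pair, 65 and 109 bases long, are shown because they hold the bases around the near-identical mature arm, which is in capitals.
miR-146a hairpin: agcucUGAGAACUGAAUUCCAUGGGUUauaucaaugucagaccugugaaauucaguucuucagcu
miR-146b hairpin: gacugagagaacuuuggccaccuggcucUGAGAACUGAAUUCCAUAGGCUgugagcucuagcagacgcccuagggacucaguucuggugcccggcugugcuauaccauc
Mir146 lies on the minus strand of chromosome 11 with the mature arm at 43374435 to 43374456, and no other gene of GENCODE vM21 spans it. Mir146b lies on the plus strand of chromosome 19 at 46342790 to 46342811, inside the protein-coding gene Mfsd13a of the same strand but outside its exons. Mir155 lies on the plus strand of chromosome 16 at 84714143 to 84714165, in exon 2 of its host transcript, the long non-coding RNA gene Mir155hg. Of the partner arms, miR-146a-3p was listed in no table, miR-155-3p was listed only in KO males with at most 6 reads, and miR-146b-3p was listed in all 4 tables with 0 to 224 reads.

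The libraries held between 41542 and 2082034 reads assigned to miRNAs, with table medians of 181209.5 in co-ex females, 408363 in co-ex males, 689658 in KO females and 1264472.5 in KO males. Each co-ex or KO table of 1 sex was normalized by the authors on its own, so a normalized value (reads divided by the size factor of the library) is compared only within a table. A pair of libraries stood apart from the others of their group. KO male FA replicate 3 had 8426 normalized units of miR-150-5p, a miRNA of mature lymphocytes, against 163 and 137 in its group, and co-ex female FA replicate 2 had 912 against 19.4 to 56.5. In KO males replicate 3 of FA also had the most epithelial miRNA reads of its group (28132 reads per 1000000 miRNA reads, RPM, against 2367 and 3041). Results of O3 against FA in these tables are therefore given with and without the library. The miRNAs taken here as myeloid markers, miR-223-3p, miR-142a-3p and miR-142a-5p, were listed in all 4 tables, as were all 10 epithelial markers looked for. Whether the myeloid set marks myeloid cells alone was not tested. The sum of the epithelial markers reached 58535 RPM in a co-ex female O3 library. Epithelial miRNAs were thus among the reads, and their source was not tested. Bulk libraries cannot tell fewer cells of a type from less RNA per cell.

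The 3 members differed widely in level within the same library. miR-146b-5p was among the most abundant miRNAs of AM, at rank 2 to 7 in every library of co-ex males, KO females and KO males except KO male FA replicate 3, where it ranked 51. In co-ex females its rank was 6 to 15 after FA and 9 to 30 after O3. miR-146a-5p ranked 41 to 126 over the 28 libraries, and miR-155-5p 70 to 250. In 27 libraries miR-146a-5p was 0.377% to 8.73% of the value of miR-146b-5p, and in KO male FA replicate 3 it was 131%. The mature forms are 22, 22 and 23 bases long, so no correction for length enters this ratio, but adapters join different small RNAs with different yield, and the ratio is one of reads.

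**Figure D1:**
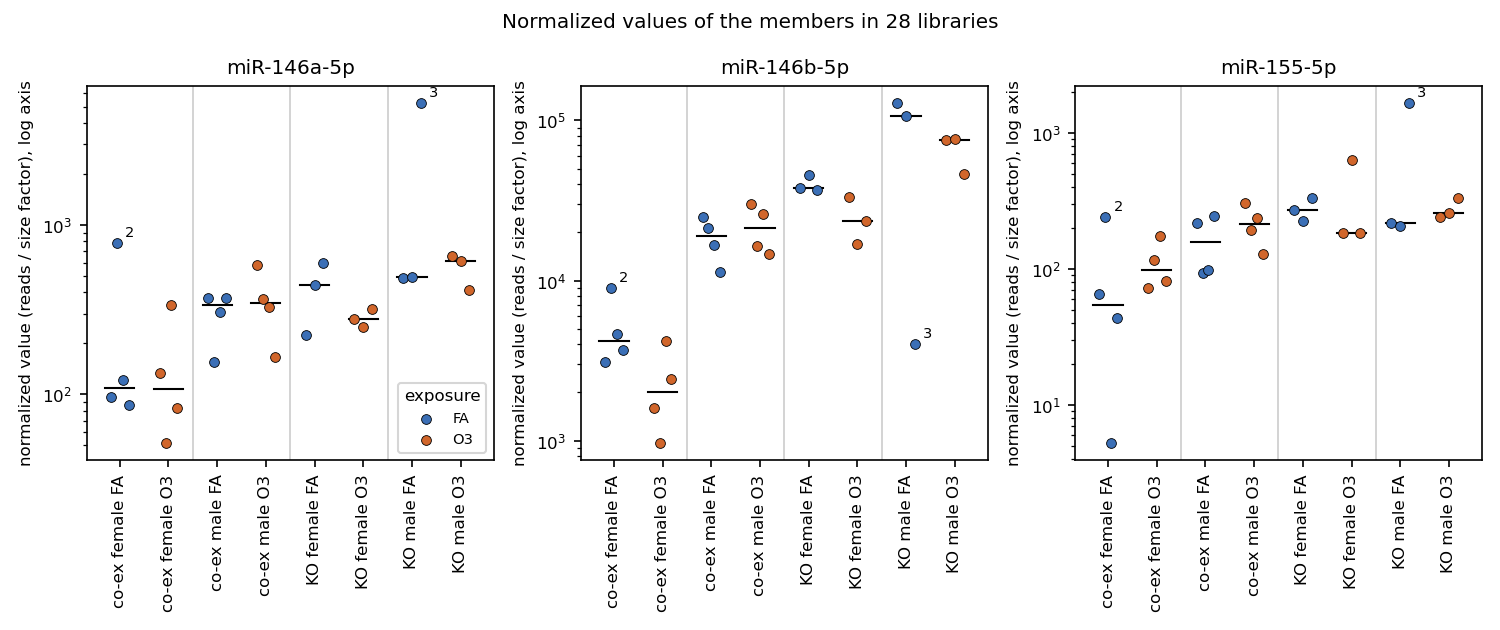
Normalized value (log axis) of miR-146a-5p, miR-146b-5p and miR-155-5p in each of the 28 libraries, by group, with 1 point per library and the bar at the group median. Scales differ between the 4 tables. The points marked 2 and 3 are co-ex female FA replicate 2 and KO male FA replicate 3, which lie above their groups in miR-146a-5p, while KO male FA replicate 3 lies far below its group in miR-146b-5p.

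O3 was compared with FA first for miR-146b-5p, the most abundant brake. In co-ex females its normalized values were 3116, 8935, 4653 and 3693 after FA and 1597, 967.7, 4198 and 2425 after O3. Of the O3 libraries, 3 lay below every FA library and replicate 3 lay among them. The fitted difference was -1.23 ± 0.51 (log2, SE, n = 4 and 4, limma, unadjusted p = 0.0288, adjusted p = 0.730), and without co-ex female FA replicate 2 it was -0.92 (limma, adjusted p = 0.502). In KO females the values were 37751, 45930 and 36736 after FA and 33258, 17013 and 23489 after O3. Every O3 library was below every FA library, the mean after O3 being 0.613 of that after FA. Such a separation downward was seen for 12.2% of the miRNAs tested in KO females, and in either direction for 31.3%. The fitted difference of -0.75 ± 0.27 (log2, SE, n = 3 and 3) missed the threshold of 0.1 (limma, adjusted p = 0.132), which 13.2% of the miRNAs of that table passed. Leaving out KO female O3 replicate 1 gave -0.998 with an adjusted p of 0.0333 by limma. Over the omissions of 1 library, 25 to 52 miRNAs of that table were called, against 42 with all libraries.

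miR-146b-5p in the males did not share one sign. In co-ex males the values were 24880, 21414, 16694 and 11288 after FA and 30260, 16533, 25920 and 14647 after O3, in overlapping ranges. The fitted difference was 0.23 ± 0.37 (log2, SE, n = 4 and 4, limma, adjusted p = 0.944). In KO males the FA libraries had 128472, 106670 and 4013, and the O3 libraries had 75620, 77010 and 46392. Replicate 3 of FA was thus the lowest of the 6 libraries, and the other FA libraries were the highest. With it the fitted difference was 0.77 ± 1.26 (log2, SE, n = 3 and 3, limma, adjusted p = 0.967). Without it the difference was -0.86 ± 0.27 and passed the threshold (limma, adjusted p = 0.0503, n = 2 and 3), while the number of miRNAs called in that table went from 4 of 440, or 0.909%, to 86 of 479. On reads, with the library kept, edgeR gave -0.25 and DESeq2 -0.26.

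miR-146a-5p, the other brake, showed no difference past the threshold in any table. Its values in co-ex females were 95.9, 780, 122 and 86.2 after FA and 133, 51.6, 338 and 82.9 after O3. The group medians were 109 and 108, and the single high FA library, replicate 2, set the difference of the means. The fitted difference was -0.51 ± 0.73 (log2, SE, n = 4 and 4, limma, adjusted p = 0.891) with that library and 0.23 without it. In co-ex males, values of 369, 155, 305 and 370 after FA and of 577, 367, 328.5 and 167 after O3 overlapped, with a fitted difference of 0.21 ± 0.49 (log2, SE). Omitting replicate 2 of FA gave -0.08, and omitting replicate 1 of O3 gave -0.06. KO females had 224, 441 and 593 after FA and 280, 250 and 320 after O3, a fitted difference of -0.46 ± 0.44 (log2, SE). In KO males the FA libraries had 485, 495 and 5256 and the O3 libraries 660, 611.5 and 411. KO male FA replicate 3 was the highest library of its table, and the other 5 overlapped. The fitted difference was -0.97 ± 0.94 (log2, SE, n = 3 and 3) with it and 0.17 without it.

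miR-155-5p, the promoter of activation, likewise passed the threshold in no table. In co-ex females the FA libraries had 65.7, 242, 5.24 and 43.5, and the O3 libraries had 72.4, 116, 174.5 and 81.7. All O3 libraries lay above 3 of the FA libraries and below the fourth, replicate 2, and the lowest value, in replicate 3, rested on 3 reads. The fitted difference was 1.20 ± 0.88 (log2, SE, n = 4 and 4, limma, adjusted p = 0.841), and 2.00 ± 0.78 without replicate 2 of FA (limma, unadjusted p = 0.0194, adjusted p = 0.502). Without replicate 3 of FA, the library of 3 reads, it was the lowest of all omissions at 0.24. In co-ex males, 219, 92.9, 98.1 and 244 after FA and 305, 192, 235 and 129 after O3 overlapped. The fitted difference there was 0.46 ± 0.50 (log2, SE). KO females had 273, 223 and 333 after FA and 183.3, 633 and 183 after O3, so that only O3 replicate 2 exceeded the FA libraries. The fitted difference was 0.02 ± 0.55 (log2, SE), and -0.57 without that library and -0.12 without KO female FA replicate 2. In KO males the FA libraries had 217, 206 and 1661 and the O3 libraries 243, 258 and 331. Replicate 3 of FA was again the high library, and the difference of -0.61 ± 0.84 (log2, SE) with it was 0.38 without it.

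Over the 4 tables together, with a term for the table, none of the 3 members was called, where 16.1% of the 230 miRNAs tested were. The pooled difference was -0.28 ± 0.38 (log2, SE, 28 libraries, limma, adjusted p = 0.680) for miR-146b-5p, -0.39 ± 0.37 (limma, adjusted p = 0.549) for miR-146a-5p and 0.35 ± 0.41 (limma, adjusted p = 0.635) for miR-155-5p, which on reads was -0.095 by edgeR and -0.044 by DESeq2. Leaving out KO male FA replicate 3 brought miR-146b-5p past the threshold at -0.62 ± 0.23 (limma, adjusted p = 0.0590, 27 libraries). That fit called 57 miRNAs in all, against 37 with all libraries. Leaving out co-ex female FA replicate 2 as well gave -0.51 for miR-146b-5p (limma, adjusted p = 0.105). With both left out, a choice made after their values were seen, miR-146a-5p stood at 0.05 and miR-155-5p at 0.75 (limma, adjusted p = 0.141). In the single tables the shares called were 0.369% in co-ex females, 0.0% in co-ex males (3.53% at an unadjusted p under 0.05, and no miRNA by edgeR or DESeq2 on reads) and 0.909% in KO males, none of them a member. Scaling to the total of reads in place of the size factors moved the median of all miRNAs by 0.19 in KO females, 0.24 in KO males and -0.10 in co-ex males (log2). Such a rescaling moves all miRNAs of a library alike apart from the added 1. The place of a member against that median could therefore hardly change (miR-146b-5p in KO females at -0.81 under both).

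**Figure D2:**
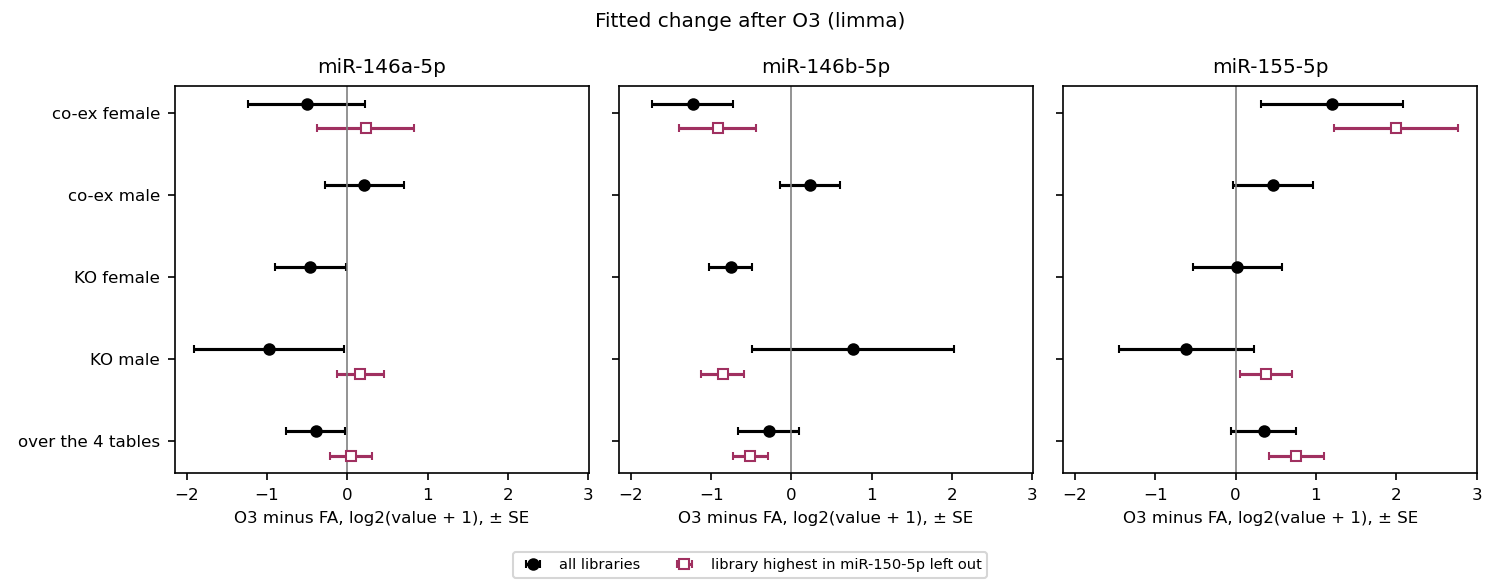
Fitted O3 minus FA difference of log2(value + 1) by limma with its standard error, for each table and over the 4 tables. Black points use all libraries, and open squares leave out the library highest in miR-150-5p (both such libraries over the 4 tables). In KO males the square lies on the other side of 0 from the black point for all 3 members, and for miR-146b-5p it lies at -0.86.

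Marker miRNAs of other cell types differed as well. In KO females, the table where miR-146b-5p was lower in every O3 library, 9 of the 10 epithelial markers rose (median difference 3.89 against 0.06 for all miRNAs tested), and the sum of all 10 went from between 2065 and 5543 RPM after FA to between 28154 and 51404 after O3, with none at 0 reads in an O3 library. The summed myeloid markers were between 7539 and 10624 RPM after FA and between 6544 and 7744 after O3. None of the 3 passed the test. Of these, miR-223-3p separated downward without overlap, as miR-146b-5p did, with mean normalized values of 3386 after FA and 2399 after O3 (ratio 0.708). The FA and O3 values of miR-142a-3p and of miR-142a-5p overlapped. In KO males the epithelial median was 1.81, with 1 of 10 called (miR-34b-3p). Without FA replicate 3, where miR-146b-5p passed the test, 9 of 10 rose with a median of 2.92, and their sum was 2367 and 3041 RPM in the 2 FA libraries left against 26176 to 34927 after O3. The epithelial median was 0.93 in co-ex females with 0 of 10 called, and 0.53 in co-ex males with 0 of 9. In co-ex females the red cell marker miR-486b-5p fell (-3.19 ± 0.61, log2, SE, limma, adjusted p = 0.0341), and the sum of the 4 listed red cell markers was between 12810 and 137372 RPM after FA and between 2929 and 4284 after O3. The part of these other cell types in the values of the members was not tested.

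The response to O3 was compared between sexes and genotypes as a difference of the fitted differences. For miR-146b-5p, the response of co-ex males exceeded that of co-ex females by 1.46 ± 0.64 (log2, SE, limma, unadjusted p = 0.0358, adjusted p = 0.968), where 0 of 249 miRNAs were called and 3.21% had an unadjusted p under 0.05. KO males exceeded KO females by 1.52 ± 1.42, and by -0.10 without KO male FA replicate 3. Co-ex females differed from KO females by -0.48 ± 0.65, and co-ex males from KO males by -0.54 ± 1.24, which was 1.09 without that library. For miR-146a-5p the same differences were 0.72, -0.51, -0.04 and 1.19, and for miR-155-5p they were -0.74, -0.64, 1.18 and 1.08, with standard errors of 0.95 to 1.27 and none called. Without KO male FA replicate 3, KO males exceeded KO females by 0.63 for miR-146a-5p and 0.35 for miR-155-5p, and co-ex males exceeded KO males by 0.05 and 0.09, again with none called. In the comparison of co-ex and KO females 8.71% of 241 miRNAs were called. In those of KO males with KO females and of co-ex males with KO males limma called 0.0%, and 5.5% and 1.97% had an unadjusted p under 0.05.

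To compare levels across the tables, the reads themselves were scaled together by TMM and tested by edgeR over the 303 miRNAs kept. Of the members, only miR-146b-5p was called in any of these comparisons, and co-ex females were the low group. In RPM it was 6248 to 28571 in co-ex females after O3 and 44966 to 85574 in co-ex males after O3, with no overlap, as for 13.5% of the miRNAs tested. The ratio of the mean RPM, males to females, was 4.14 without the TMM factors. Co-ex males were 4.65-fold higher (2.22 ± 0.63, log2, SE, n = 4 and 4, edgeR, adjusted p = 0.0287), a call shared by 9.9% of miRNAs. It was lost without co-ex female O3 replicate 2, the lowest library (1.97, edgeR, adjusted p = 0.115), and without KO male FA replicate 3 the difference was 2.15 (edgeR, adjusted p = 0.00383). After FA the difference between the sexes in co-ex mice was 1.04 ± 0.60 (log2, SE, edgeR, adjusted p = 0.274), from 20284 to 52827 RPM in females and from 42480 to 64635 in males, and 15.2% of miRNAs were called there. miR-223-3p, a myeloid marker that is highest in neutrophils, was higher in co-ex males by 1.90 after FA and by 1.75 after O3 (log2, edgeR, adjusted p = 0.0252 and 0.0484). In the same comparisons the epithelial markers had a median of -1.79 after FA, with 3 of 10 lower in males (miR-34b-3p, miR-34c-5p and miR-375-3p), and of -1.34 after O3, with 1 of 10 lower (miR-449a-5p). Of 3 red cell markers tested, miR-451a and miR-486b-5p were lower in males after FA (-3.66 and -3.92) and none was called after O3. The sex of the co-ex mice cannot be told apart from the set of libraries that made each table. The part of these cell types in the level of miR-146b-5p was not tested.

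Between genotypes, miR-146b-5p in females was called lower in co-ex than in KO under both exposures, after FA as 1 of 98 miRNAs called among 303. After FA it was 20284 to 52827 RPM in co-ex and 66695 to 77126 in KO, with no overlap, as for 34.3% of miRNAs. The difference was -1.65 ± 0.65 (log2, SE, n = 4 and 3, edgeR, adjusted p = 0.0614), 3.14-fold lower, where 32.3% of miRNAs were called. In mean RPM, without the TMM factors, it was 2.24-fold lower. Those factors were 1.09 to 1.25 in co-ex females after FA and 0.79 to 0.86 in KO females after FA. After O3 miR-146b-5p was 6248 to 28571 RPM in co-ex and 35560 to 66059 in KO, again without overlap, as for 23.8% of miRNAs. The difference was -1.90 ± 0.65 (log2, SE, n = 4 and 3, edgeR, adjusted p = 0.0879), 3.73-fold lower, where 10.2% were called. In mean RPM it was 3.35-fold lower. Both calls lay close to the threshold. The call after FA ended in 14 of 28 omissions of 1 library. Those were FA replicates 1, 3 and 4 of co-ex females, the 3 FA libraries of KO females, FA replicates 1, 2 and 3 and O3 replicates 1 and 3 of co-ex males, and FA replicates 1 and 2 and O3 replicate 2 of KO males. The call after O3 ended in 19 of 28 and was kept when a co-ex female FA library, co-ex female O3 replicate 3, KO female O3 replicate 2, KO male FA replicate 3, or FA replicate 4 or O3 replicate 2 of the co-ex males was the one omitted. Over these omissions the differences ranged from -2.02 to -1.30 after FA (edgeR, adjusted p from 0.0112 to 0.251) and from -2.43 to -1.55 after O3 (edgeR, adjusted p from 0.0137 to 0.313). Beside them, 8 of 10 epithelial markers were higher in co-ex than KO females after FA (median 3.25) and 0 of 10 after O3 (median 0.31), and of the 3 myeloid markers miR-142a-3p was lower after FA (-2.54, edgeR, adjusted p = 0.0626) and none after O3, with miR-223-3p at -1.07 and -0.87 without passing the test. The genotype of these females cannot be told apart from the set of libraries that made each table, and the part of other cell types was not tested.

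In males miR-146b-5p differed between genotypes by -0.28 ± 0.64 after FA (-0.83 without KO male FA replicate 3) and by 0.01 ± 0.65 after O3 (log2, SE, edgeR, neither called, where 18.5% and 6.93% of miRNAs were). Between KO males and KO females it differed by -0.33 ± 0.69 after FA, which was 0.25 without the same library, and by 0.30 ± 0.69 after O3, where 3.3% and 0.66% of miRNAs were called. In the order of the group means, in RPM, KO females after FA were highest (71492 ± 5266, SD, n = 3), followed by co-ex males after O3 (61510 ± 19638, n = 4), KO males after FA (57851 ± 47999, n = 3), KO males after O3 (56367 ± 16034, n = 3), co-ex males after FA (54993 ± 11258, n = 4) and KO females after O3 (49850 ± 15340, n = 3). Co-ex females after FA (31929 ± 14353, n = 4) and after O3 (14861 ± 9837, n = 4) were last. Each group overlapped with its neighbours in that order. Without KO male FA replicate 3 the KO males after FA would be first, at 85406 (80307 and 90506).

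For miR-146a-5p and miR-155-5p none of 8 differences of level between sexes or genotypes was called by edgeR, in the full set of libraries or with any 1 left out. The group means of miR-146a-5p ran from 476 to 1648 RPM and those of miR-155-5p from 234 to 719. For miR-155-5p in KO males after O3, values of 207 to 270 RPM lay below those of KO females after O3 (364 to 1323) and of co-ex males after O3 (405 to 864), separations seen for 14.9% and 30.7% of miRNAs. The differences were -1.36 ± 0.87 and 1.23 ± 0.82 (log2, SE, males minus females and co-ex minus KO, edgeR, adjusted p = 0.999 and 0.428).

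**Figure D3:**
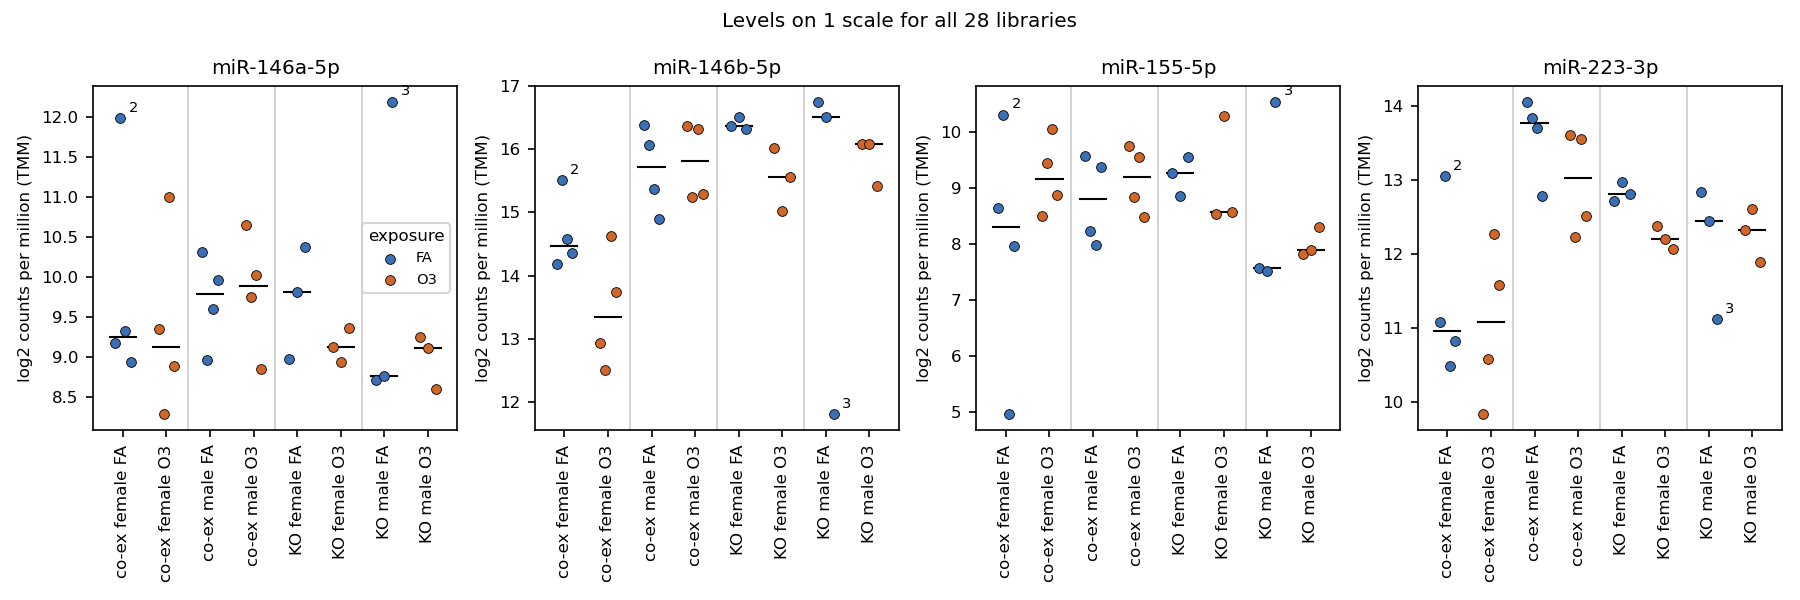
TMM-scaled level (log2 CPM) of the 3 members and of miR-223-3p by group, with 1 point per library and the bar at the median. miR-146b-5p is lowest in co-ex females after O3, between 12.50 and 14.63, apart from KO male FA replicate 3 at 11.80.

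Because size factors cancel within a library, the percent of 1 member relative to another does not depend on the scaling. The log2 ratios tested were of value + 1, and the added 1 does not cancel, which matters most at low values. In co-ex females the ratio of miR-155-5p to miR-146b-5p was higher after O3 in these libraries, a difference that did not pass after adjustment. As a percent of miR-146b-5p, miR-155-5p was 2.11, 2.71, 0.113 and 1.18 after FA and 4.53, 12.0, 4.16 and 3.37 after O3, so that every O3 library exceeded every FA library. How often ratios of other miRNAs separate in this way was not counted. On the log2 scale the mean went from -6.67 ± 1.98 to -4.24 ± 0.81 (SD, n = 4 and 4), a difference of 2.43 (exact permutation test, two-sided, p = 0.0286, the smallest this design allows, and 0.229 after adjustment over 8 tests). Each omission of an O3 library, and that of FA replicate 3, left no p under 0.05 (exact permutation test, differences of 1.47 to 2.92 over all 8 omissions, where 3 against 4 libraries cannot give less than 0.0286). Without FA replicate 3, whose ratio rested on 3 reads of miR-155-5p, the difference was 1.47 (exact permutation test, p = 0.0571).

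The same ratio differed by 0.23 in co-ex males, 0.78 in KO females and -1.38 in KO males (log2; exact permutation tests, two-sided, p = 0.714, 0.600 and 1.00). In KO females the smallest p of 3 against 3 libraries is 0.1, and without O3 replicate 2 the difference was -0.06. In co-ex males it was 0.69 without FA replicate 4 (exact permutation test, p = 0.0286) and -0.08 without FA replicate 2. In KO males it was 1.23 without FA replicate 3, in which miR-155-5p was 41.4% of miR-146b-5p against 0.169% and 0.193% in the other FA libraries and 0.321% to 0.713% after O3.

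The ratio of the 2 brakes, miR-146a-5p to miR-146b-5p, differed by 0.73 in co-ex females, -0.02 in co-ex males, 0.29 in KO females and -1.74 in KO males (log2; exact permutation tests, two-sided, p = 0.229, 1.00, 0.700 and 1.00). The value in KO males was 1.02 without FA replicate 3, and that in KO females was -0.06 without FA replicate 1. In co-ex males the difference was positive, at 0.05 to 0.33, when FA replicate 3 or 4 or O3 replicate 3 or 4 was omitted. None of the 8 ratio tests passed 0.05 after adjustment.

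**Figure D4:**
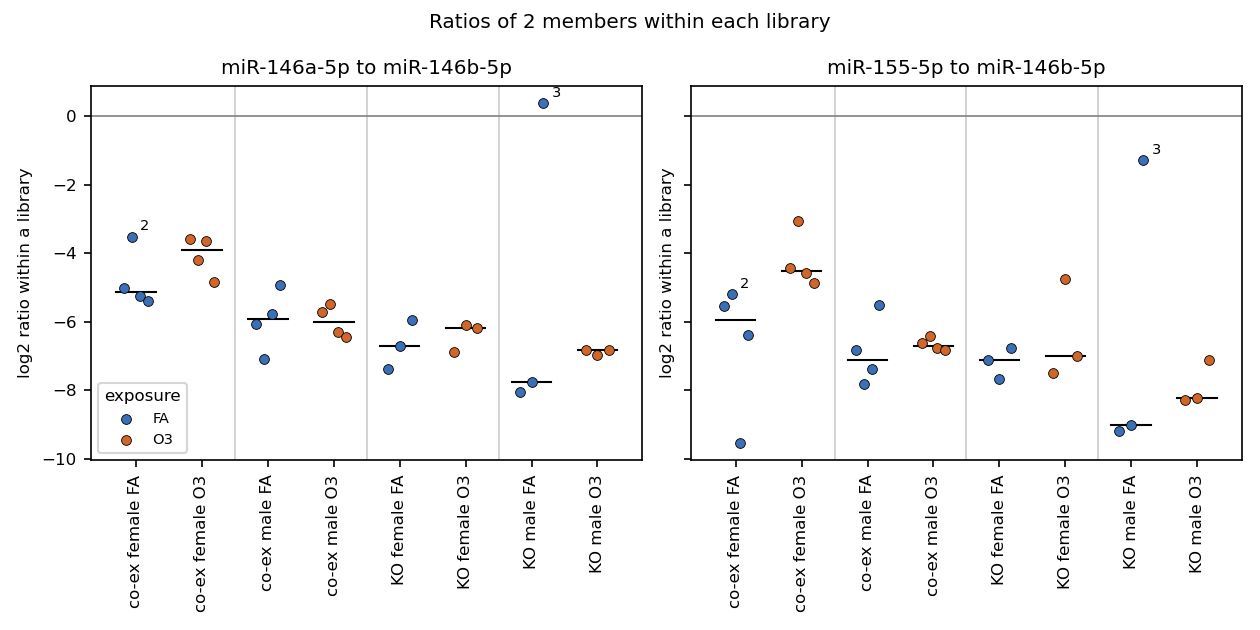
Log2 ratio of miR-146a-5p to miR-146b-5p and of miR-155-5p to miR-146b-5p in each library, by group, with 1 point per library and the bar at the median. In co-ex females the 4 O3 points of miR-155-5p to miR-146b-5p lie above the 4 FA points, and in KO males FA replicate 3 lies far above the other 5 libraries in both ratios.

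The members were correlated with each other across the 8 or 6 libraries of a table, on log2(value + 1), in 12 relations. The pair with the highest r was not the same in every table, but the tables were not compared by a test. None of the 12 relations passed 0.05 after adjustment. In co-ex females miR-146a-5p and miR-146b-5p went together (Pearson r = 0.78, exact permutation p = 0.0222, adjusted 0.0887, and Spearman rho = 0.69, exact permutation p = 0.0694, adjusted 0.278, n = 8). Without the 2 libraries farthest from the median of miR-146a-5p, r was 0.56 (FA replicate 2 and O3 replicate 3, exact permutation p = 0.247, n = 6), without O3 replicate 3 alone it was 0.78 (exact permutation p = 0.0357), and with the exposure means taken out it was 0.87. The r was 0.58 without FA replicate 2 and 0.72 without O3 replicate 2, neither with an exact p under 0.05. miR-155-5p had r = 0.42 with miR-146a-5p and -0.03 with miR-146b-5p there.

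In co-ex males miR-146a-5p went with miR-155-5p (Pearson r = 0.81, exact permutation p = 0.0114, adjusted 0.0685, and Spearman rho = 0.90, exact permutation p = 0.00456, adjusted 0.0548, n = 8). It was 0.70 without the 2 libraries farthest from the median (FA replicate 2 and O3 replicate 4, exact permutation p = 0.185, n = 6), 0.83 without O3 replicate 4 alone (exact permutation p = 0.00258), 0.71 without FA replicate 2 and 0.74 without O3 replicate 1, the last 2 without an exact p under 0.05. miR-146b-5p had r = 0.32 with miR-146a-5p and 0.29 with miR-155-5p in these libraries. In KO females, with n = 6, the values were 0.45 for the miR-146 pair, -0.11 for miR-146a-5p and miR-155-5p and -0.54 for miR-146b-5p and miR-155-5p. Omission of O3 replicate 2 turned the last of these to 0.49 and that of miR-146a-5p and miR-155-5p to 0.46.

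In KO males a single library stood apart from the other 5. With it, r was -0.94 for the miR-146 pair, 0.95 for miR-146a-5p and miR-155-5p, and -0.99 for miR-146b-5p and miR-155-5p (exact permutation p = 0.0056, adjusted 0.0667, n = 6). Without KO male FA replicate 3 the values were 0.20, -0.34 and -0.95. Without O3 replicate 3 the relations of miR-146a-5p were -0.999 with miR-146b-5p and 0.998 with miR-155-5p, since FA replicate 3 remained. As a description, miR-150-5p had r = 0.90 with miR-146a-5p in co-ex females, 0.78 in co-ex males, 0.17 in KO females and 0.97 in KO males, where the rank correlation was -0.03. The myeloid marker miR-223-3p had r = 0.73 with miR-146b-5p in co-ex females, 0.63 in co-ex males, 0.83 in KO females and 0.94 in KO males (rank correlations 0.64, 0.48, 0.89 and 0.94).

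**Figure D5:**
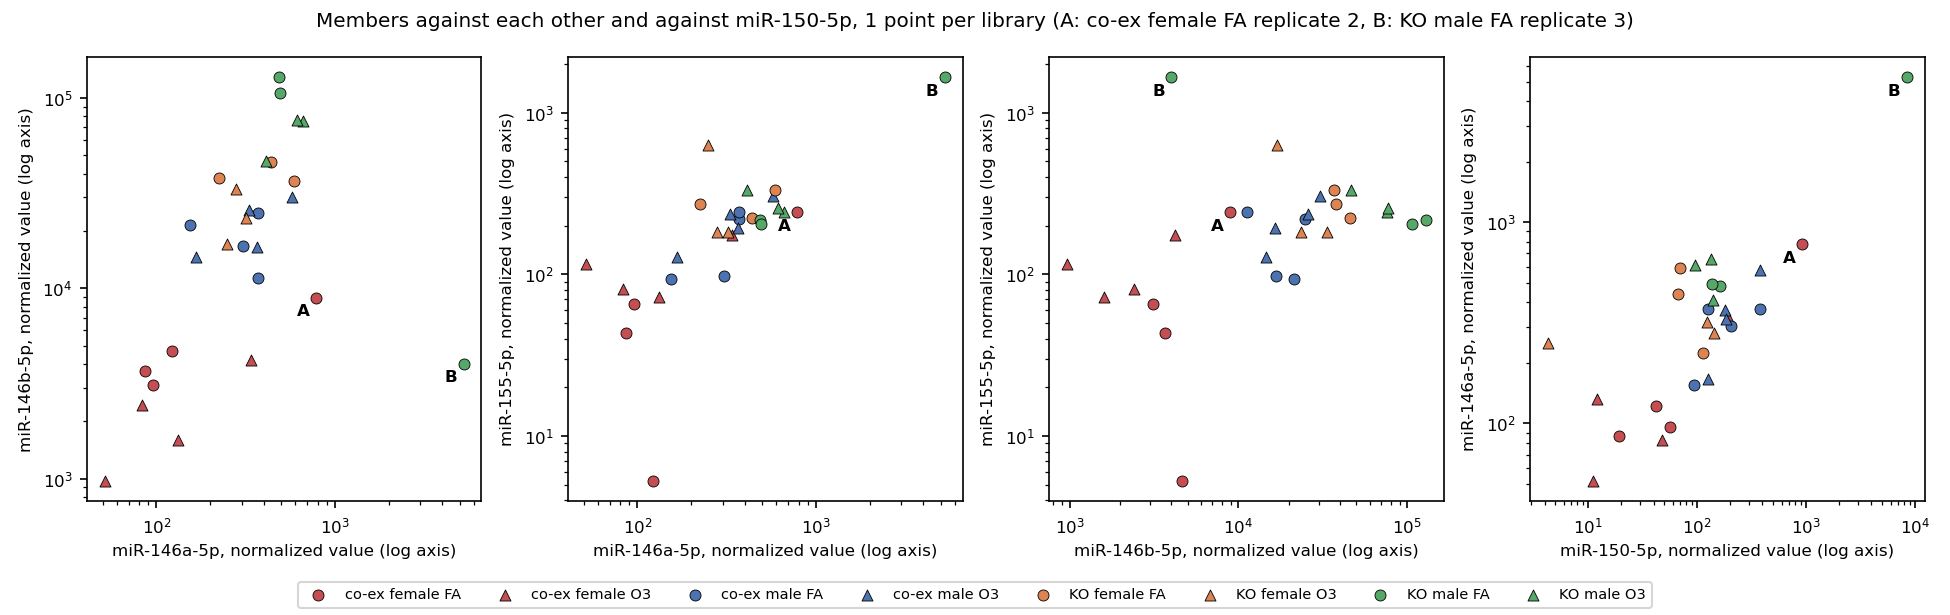
Normalized values (log axes) of each pair of members, and of miR-150-5p against miR-146a-5p, with 1 point per library and colour and shape by group. A and B mark co-ex female FA replicate 2 and KO male FA replicate 3. B lies apart in every panel, high in miR-146a-5p, miR-155-5p and miR-150-5p and low in miR-146b-5p.

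Over all 28 libraries, with the mean of each of the 8 groups taken out, the profiles most like each member were ranked among 229 other miRNAs by Pearson r, as a description, since libraries of a table share their normalization. miR-146b-5p was most like miR-1298-5p (r = 0.96), miR-23a-3p (0.87) and miR-1264-5p (0.82), which were 0.81, 0.70 and 0.58 without the 2 libraries that stood apart. miR-146a-5p was most like miR-150-5p (0.79), miR-155-5p (0.65) and miR-652-3p (0.57), which were 0.49, 0.19 and 0.47 without them. miR-155-5p was most like miR-146a-5p (0.65), miR-132-3p (0.62) and miR-200c-3p (0.62), which were 0.19, 0.46 and 0.34 without them. Between the miR-146 pair r was -0.21 with all libraries and 0.59 without those 2, and between miR-146b-5p and miR-223-3p, 8th in its order, it was 0.73 and 0.80.

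Among 15 further miRNAs known from activated or tolerant macrophages, 11 to 15 were tested in each table. With all libraries, none passed the test in co-ex females, co-ex males, KO males or over the 4 tables. Without KO male FA replicate 3, miR-125b-5p (1.60) and miR-221-3p (0.78) rose and miR-21a-5p fell (-0.87) in KO males (log2, limma, adjusted p = 0.00641, 0.0864 and 0.0746), and over the 4 tables miR-132-3p rose (1.40) and miR-125a-5p fell (-0.64, limma, adjusted p = 0.0568 and 0.0576). Of all miRNAs, these fits called 86 in KO males and 57 over the tables, against 4 of 440 and 37 of 230 with all libraries. In KO females let-7e-5p fell (-1.55 ± 0.32, log2, SE, limma, adjusted p = 0.0157) and miR-125a-5p fell (-1.26 ± 0.38, limma, adjusted p = 0.0801), both from the cluster that also holds miR-99b-5p, which stood at 0.02. These were 2 of 12 tested from the list, where 13.2% of all miRNAs tested were called. The median of the list was 0.06 in co-ex females, 0.26 in co-ex males, 0.16 in KO females, 0.19 in KO males and 0.13 over the tables, against -0.16, 0.18, 0.06, -0.04 and 0.06 for all miRNAs tested. miR-132-3p, induced through Toll-like receptors, had a pooled difference of 1.17 ± 0.53 (log2, SE, limma, unadjusted p = 0.0349, adjusted p = 0.167).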

How the data were processed

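Small RNA of AM was sequenced in 28 libraries. The authors trimmed the reads with the FASTX-Toolkit, counted miRNAs with Chimira and named edgeR and CASAVA among their tools, and the genome build was not given in the sources used here. The deposited library columns hold a signal, reads divided by a size factor, normalized by the authors for each of 4 tables on its own. Every value was a whole multiple of 1 step (tolerance 0.01 reads), so the reads were recovered. Columns of the authors' fold changes and p-values were not used.

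O3 was compared with FA by limma 3.58.1 (R 4.3.3) on log2(value + 1), with a trended prior, for miRNAs that reached a value of 5 in at least 4 (co-ex) or 3 (KO) libraries, with Benjamini-Hochberg adjustment over all miRNAs tested and a threshold of 0.1. Members could pass through 1 group only, but all 3 passed in every table. Levels between tables were tested by edgeR 4.0.16 (quasi-likelihood, TMM). Ratios and correlations were tested by exact permutation (scipy 1.17.1). Simulated reads were used to try limma, edgeR and DESeq2 within each table and limma over the 4 tables. They were also used for the response of KO males against KO females (limma) and the level of co-ex females against males after O3 (edgeR). The simulated reads shared 1 spread and had no outlying library, and the other fits were not tried. The genes named were the members, their partner arms, listed miRNAs under the threshold, defining markers and the 3 most similar profiles of each member, with miR-99b-5p, miR-132-3p and miR-486b-5p named from the lists. miR-99b-5p and miR-132-3p were chosen after their values were seen. The members and lists were chosen with earlier results of these data known. Groups follow the labels. The study states 4 animals per group, and the 3 libraries of each KO group are those analysed here. Same-numbered libraries of FA and O3 did not deviate together (correlations from -0.276 to 0.233), so the main fits have no block. Counts as low as 3 reads limited miR-155-5p, while miR-146b-5p had at least 397. Alternatives were total scaling, a pseudocount of 0.1, no filter, DESeq2 1.42.0 and edgeR on reads, the replicate block and each library left out.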

Additional observations from a re-analysis of the deposited data

Results flagged for a closer look

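Among the co-ex groups of 4 libraries, 20 sets of values of the members and their ratios were examined for a library far from the others, and 1 stood out, where chance gives about 1 in 20. miR-146a-5p in co-ex female FA replicate 2 had a normalized value of 780, against 86.2 to 122 in the other FA libraries, and the gap was 0.948 of the whole range. In the same library miR-150-5p was 912 and miR-223-3p was 1632, against at most 56.5 and 361 in the other FA libraries of co-ex females. The part of these in the value of miR-146a-5p was not tested. KO groups, with 3 libraries, were not examined in this way.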

How the results depend on the processing

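In limma, the differences of O3 and FA of the members and the differences of response of miR-146b-5p were examined under 3 settings. Scaling to the total, a pseudocount of 0.1 and removal of the filter kept every sign and call. The filter does not enter the fitted difference of a miRNA that is kept, so its removal could not change a sign in limma. The levels by edgeR were not run under total scaling or the pseudocount. Removal of the filter there kept every call of miR-146b-5p and every sign but 1. In males after O3 it stood at -0.0046 between genotypes against 0.01. On reads, miR-146b-5p in KO males was -0.25 by edgeR and -0.26 by DESeq2 against 0.77, and miR-155-5p over the 4 tables was -0.095 and -0.044 against 0.35. With both libraries highest in miR-150-5p left out, miR-146a-5p over the tables was 0.050 against -0.39. The cause of these changes was not tested. Same-numbered libraries shared only a number, and the replicate block ended the 2 calls of miR-146b-5p between co-ex and KO females (-1.52 after FA, -1.66 after O3) and changed no other call of a member.

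With 1 library left out in turn, the differences of O3 and FA ranged, for miR-146a-5p, from -1.01 to 0.23 in co-ex females, -0.078 to 0.54 in co-ex males and -1.55 to 0.17 in KO males. For miR-146b-5p they ranged from -0.998 to -0.51 in KO females, -0.86 to 1.64 in KO males and -0.62 to -0.15 over the tables, and for miR-155-5p from -0.57 to 0.32 in KO females and -1.13 to 0.38 in KO males. The differences of response of miR-146b-5p ranged from -0.10 to 2.40 between KO males and females and from -1.41 to 1.09 between co-ex and KO males. Its differences of level ranged, males minus females, from -0.67 to 0.25 in KO after FA and 1.97 to 2.75 in co-ex after O3, and, co-ex minus KO, from -2.02 to -1.30 and -2.43 to -1.55 in females after FA and O3 and from -0.83 to 0.26 and -0.19 to 0.22 in males. The log2 ratio of miR-146a-5p to miR-146b-5p ranged from -0.40 to 0.33 in co-ex males, -0.063 to 0.66 in KO females and -3.20 to 1.02 in KO males, and that of miR-155-5p to miR-146b-5p from 1.47 to 2.92 in co-ex females, -0.080 to 0.69 in co-ex males, -0.058 to 1.32 in KO females and -2.73 to 1.23 in KO males.

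Correlations of miR-146a-5p and miR-155-5p were -0.55 in co-ex females without the 2 libraries farthest from the median, and ranged over omissions of 1 library from -0.43 to 0.46 in KO females and -0.34 to 0.998 in KO males. Those of miR-146a-5p and miR-146b-5p were -0.26 in KO females without the 2 farthest, and ranged from -0.011 to 0.58 in co-ex males and -0.999 to 0.20 in KO males. Those of miR-146b-5p and miR-155-5p were 0.35 in co-ex females with the exposure means out and 0.094 in KO females without the 2 farthest, and ranged from -0.45 to 0.41 in co-ex females and -0.83 to 0.49 in KO females. With the exposure means out this relation was -0.86 in KO females (exact permutation p = 0.0417, unadjusted). In KO males, with FA replicate 3 kept, miR-146a-5p then had -0.95 with miR-146b-5p and 0.95 with miR-155-5p (exact permutation p = 0.0125 and 0.0167, unadjusted).

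Counts of all miRNAs called moved by more than 1.5 times in several comparisons. O3 against FA called 4 in KO males, against 1 with the block, 2 by edgeR, 15 by DESeq2 and 0 (without O3 replicate 3) to 86 (without FA replicate 3) over omissions, and 37 over the tables, against 23 by edgeR and 20 (without co-ex male O3 replicate 4) to 57 (without KO male FA replicate 3) over omissions. In KO females 42 were called and 25 (without O3 replicate 3) to 52 over omissions. Scaled to the total, the calls over the tables were 27 higher and 4 lower, against 28 and 9. The response of co-ex and KO females differed for 21 miRNAs, against 32 when scaled to the total and 9 to 31 over omissions. Of the levels, males and females differed after FA for 46 miRNAs in co-ex (18 to 71 over omissions) and 10 in KO (2 with DESeq2 size factors, 64 by DESeq2, 1 with the block, 0 to 47), and after O3 for 30 in co-ex (56 by DESeq2, 17 to 56) and 2 in KO (0 with the block, 0 to 3). Co-ex and KO differed in males for 56 after FA (91 by DESeq2, 24 to 64) and 21 after O3 (48 by DESeq2, 12 with the block, 2 to 32), and in females for 31 after O3 (61 by DESeq2, 14 with the block, 11 to 35). Depth limited miR-155-5p most, with 3 to 1113 reads per library.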
